A study of Mus musculus with 2 samples.

Results

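A set of 10 glucocorticoid-responsive and metallothionein genes was followed in mouse lung after endothelial targeting of Foxf1: Mt1, Mt2, Nr3c1, Fkbp5, Tsc22d3, Zbtb16, Sgk1, Ddit4, Errfi1 and Pdk4. They were selected by symbol from the 22072 genes of the deposited tables, with the levels of both libraries already known, so their differences are given as a description. All 10 had records in both libraries and all 10 had a mean FPKM of at least 1 (FPKM is a level normalised for transcript length and library depth). The knockout mice had the genotype Pdgfb-iCreER / FoxF1 fl/fl, in which a tamoxifen-inducible Cre recombinase is driven by the Pdgfb promoter in endothelial cells. The control mice were Foxf1 fl/fl without Cre, so effects of Cre and of Foxf1 loss cannot be told apart. Both genotypes were on the C57/BL6 background, and whole-lung RNA of several mice was combined into 1 library per genotype. The labels do not state the age or sex of the mice, their number, the tamoxifen schedule or the time of day at dissection.

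With 1 library a group no difference has a replicate check and no p-value was computed. Intervals after a fold are 95% counting intervals from about 10400000 reads on transcripts for knockout lung and 13200000 for control lung, and they leave out differences between mice and between library preparations. Foxf1, listed as Foxf1a, had 72.1 FPKM in control lung and 15.7 in knockout lung. All 5 lung identity genes (Sftpc, Scgb1a1, Ager, Foxj1 and Pecam1) were detected in both pools. In whole-lung RNA, fewer cells of a type and less RNA per cell cannot be told apart.

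Glucocorticoids are adrenal steroids that bind the glucocorticoid receptor, the product of Nr3c1, which then enters the nucleus and binds DNA at paired 6-base arms. In lung they are best known for maturing the alveolar epithelium and for damping inflammation. Among the classic induced genes, Fkbp5 encodes a co-chaperone that lowers hormone binding by the receptor, Tsc22d3 encodes the anti-inflammatory leucine zipper protein GILZ, and Zbtb16 encodes the zinc finger repressor PLZF. Mt1 and Mt2 encode metallothioneins, small cysteine-rich proteins that bind zinc and copper. Their genes are induced by metals through the zinc-sensing factor MTF1 and also by glucocorticoids and inflammation.

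Promoter windows from the RefSeq table (build GRCm38.p6, 250 bases before to 50 after each annotated start) were found for 8 of the 10 genes, 16 windows in all, with no entry for Zbtb16 and Nr3c1. Windows were searched on both strands for the metal response core (TGCACNC or TGCGCNC) and for a glucocorticoid receptor palindrome, in which the arms NGNACA and TGTNCN are 3 bases apart. The single arm AGAACA, which can lie inside the palindrome, was searched as well. The windows of Mt2, Mt1 and one of the Sgk1 starts are shown because they hold the densest matches among the 8 genes with a window. Capitals mark metal response cores in Mt2 (chr8:94172368-94172667, plus strand), 3 metal response cores and the palindrome in Mt1 (chr8:94178839-94179138, plus strand), and the palindrome in Sgk1 (chr10:21993640-21993939, plus strand).
Mt2: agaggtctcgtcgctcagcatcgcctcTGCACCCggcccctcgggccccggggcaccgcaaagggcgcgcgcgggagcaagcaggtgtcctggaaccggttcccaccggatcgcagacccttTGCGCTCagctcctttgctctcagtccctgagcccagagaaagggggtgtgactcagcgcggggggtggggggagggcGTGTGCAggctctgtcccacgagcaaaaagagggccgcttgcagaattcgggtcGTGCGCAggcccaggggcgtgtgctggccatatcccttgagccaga
Mt1: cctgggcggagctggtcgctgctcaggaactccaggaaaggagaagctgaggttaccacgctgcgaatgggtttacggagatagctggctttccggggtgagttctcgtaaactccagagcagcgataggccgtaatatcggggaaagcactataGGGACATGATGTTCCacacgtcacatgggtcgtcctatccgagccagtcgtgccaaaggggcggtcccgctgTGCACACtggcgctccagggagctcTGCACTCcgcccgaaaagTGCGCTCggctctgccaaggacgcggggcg
Sgk1: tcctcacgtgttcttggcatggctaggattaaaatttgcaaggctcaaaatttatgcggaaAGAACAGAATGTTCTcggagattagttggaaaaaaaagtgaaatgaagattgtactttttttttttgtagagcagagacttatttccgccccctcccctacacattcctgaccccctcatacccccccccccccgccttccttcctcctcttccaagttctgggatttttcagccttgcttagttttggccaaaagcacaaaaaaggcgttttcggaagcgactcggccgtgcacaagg

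The Mt2 window held 4 metal response cores, beginning at positions -223, -128, -50 and 5 (the start is 1 and the base before it -1), of which the last pair was on the minus strand. At least 4 cores were found in 0.517% of all 32851 windows of this length. The Mt1 window held 3 cores, at -23, 3 and 21, and its palindrome began at -95. A palindrome was found in 0.472% of all windows, at least 3 cores in 1.97%, and both together in 5 windows. The Sgk1 palindrome began at -189, and both of its arms match the single arm exactly. This window belongs to the fifth of 6 annotated Sgk1 starts. The spacing between the 6 window starts was the same as between the 6 deposited record starts, which ties it to the record of 2587 bases.

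Elsewhere among the 16 windows, single metal response cores were found at the last Sgk1 start and in Ddit4. Single arms were found at the first Sgk1 start, at -195, and at the fourth, at -13, and the palindrome window held a further arm at -242. At least 1 core was found in 25.7% of all windows, and the arm AGAACA in 19.0%. The windows of Fkbp5, Errfi1 and Pdk4 held none of the searched letters, and 1 of the 3 Tsc22d3 windows held a single arm. These matches describe the letters of short windows. Known receptor sites of several of these genes lie far from their starts and were not searched here.

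**Figure D1:**
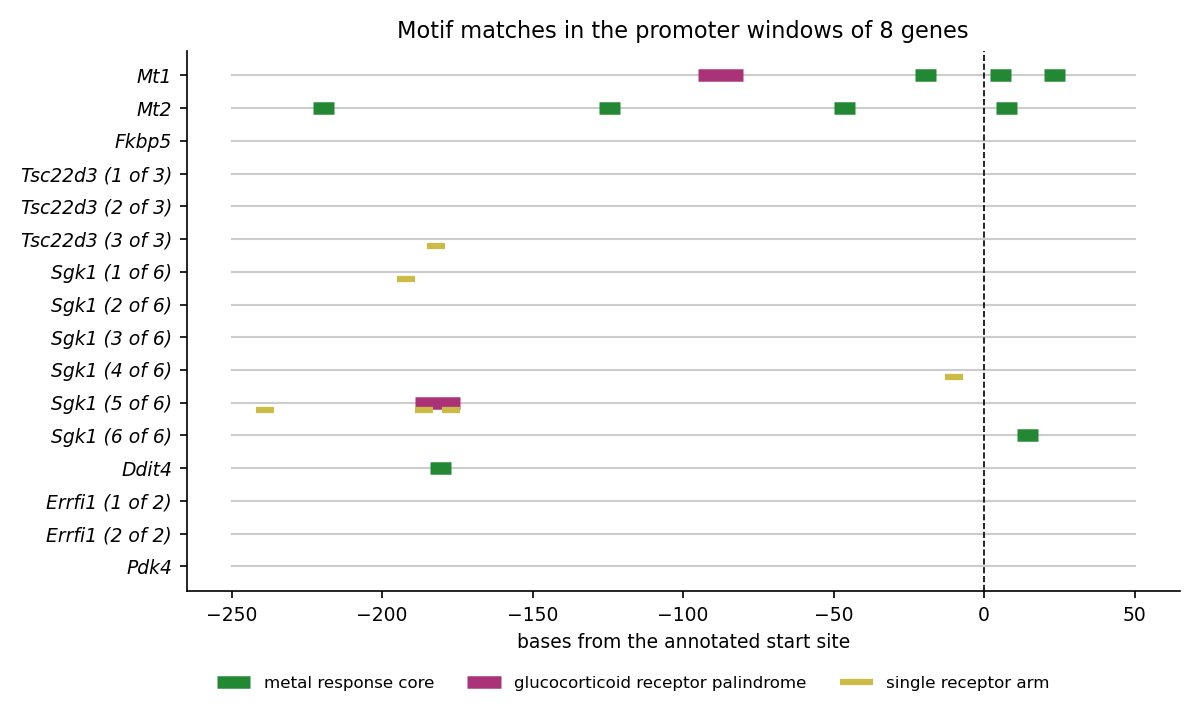
Positions of motif matches in the promoter windows of the 8 genes with an entry, 1 row per annotated start, with distance from the start on the horizontal axis in bases. Green bars are metal response cores, purple bars the receptor palindrome and yellow bars the single arm. Mt2 shows 4 green bars, Mt1 shows 3 and a purple bar, and the fifth of 6 Sgk1 starts carries the other purple bar.

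Both metallothionein transcripts were more abundant in the knockout pool. Mt1 (chromosome 8, 96702989 to 96704227, mm9) had 59.0 FPKM in control lung and 136 in knockout lung. It was 2.30-fold higher (2.07 to 2.57). Mt2 (chromosome 8, 96696518 to 96697467, mm9) lies 5521 bases upstream of it, and both genes were more abundant in the knockout pool than in the control pool. Mt2 had 31.5 FPKM in control lung and 106 in knockout lung, a 3.35-fold higher level (2.92 to 3.85).

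Mt1 was the more abundant of the pair in both libraries, but by a smaller margin in the knockout pool. Its FPKM was 1.87 times that of Mt2 in control lung and 1.29 times in knockout lung. The summed FPKM of the pair was 90.5 and 241. The labels do not state how reads common to both genes were divided, and the effect of that division was not tested. By level, Mt1 moved from rank 941 to rank 400 of all genes and Mt2 from rank 1999 to rank 519.

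Among other genes of zinc and metal handling, 2 of 12 with a mean FPKM of at least 1 were at least 1.5-fold higher on the log2(FPKM + 1) scale and 0 were lower. Of all genes over the same floor, 9.41% were higher and 4.63% lower by as much, so this count is near the background. The median difference of the list was 0.12 on that scale, against 0.05 for all genes. Above equality lay 10 of the 12, against 56.8% of all genes. Mtf1, which encodes the metal-sensing activator itself, was the lowest of the list, with 4.93 FPKM in control lung and 3.24 in knockout lung. The zinc importer gene Slc39a1 was the highest, with 33.8 FPKM in control lung and 55.5 in knockout lung. Slc39a8, another importer gene and the most abundant of the list, had 88.3 and 68.1 FPKM. Gclc, which encodes an enzyme of glutathione synthesis, had 43.9 FPKM in control lung and 63.0 in knockout lung. The brain metallothionein gene Mt3 was listed at 0 in control lung and at 0.284 FPKM in knockout lung, and Mt4 was listed at 0 in both.

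Liver-type transcripts, whose tissue of origin is also rich in metallothionein, were higher in the same library. All 6 liver genes over the floor were higher by 1.5-fold or more in knockout lung, and the 7 listed genes summed to 12.6 FPKM in control lung and 70.7 in knockout lung. Alb, which encodes albumin, had 8.98 and 49.6 FPKM, and none of the 7 was at 0 in either pool. Of the 9 neutrophil markers, 5 were at least 1.5-fold higher and 0 lower, with sums of 61.1 and 96.5 FPKM. Of the 9 macrophage markers, 3 were higher and 1 lower, with a median of 0.43 and sums of 409 and 494 FPKM. Of those sums, 295 and 313 FPKM came from Chi3l3. The same background shares, 9.41% higher and 4.63% lower, apply to these lists, which were chosen with earlier results known. No marker of either list was at 0 in a pool. The part of these cells or tissues in the metallothionein difference was not tested.

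The receptor gene itself differed little. Nr3c1 (chromosome 18, 39570199 to 39646899, mm9) had 31.8 FPKM in control lung and 25.6 in knockout lung, 1.24-fold lower (1.17 to 1.31). It was slightly lower in the knockout pool, within the 1.5-fold threshold. Of 16 receptor machinery genes over the floor, 0 were at least 1.5-fold higher and 0 lower on the log2(FPKM + 1) scale. Among all genes 9.41% were higher and 4.63% lower, so these counts are near the background. The median of the 16 was -0.19, with 4 of 16 above equality, against 56.8% of all genes. By plain ratio Nr3c2, named after its values were seen, was 1.65-fold lower (1.21 to 2.28). It had 1.91 FPKM in control lung and 1.16 in knockout lung.

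Chaperones that hold the receptor ready for hormone are among these genes. The most abundant was Hspa8, which encodes a constitutive HSP70, with 887 FPKM in control lung and 616 in knockout lung. On the log2(FPKM + 1) scale it was also the lowest of the list. Hsp90ab1, which encodes an HSP90, had 511 FPKM in control lung and 384 in knockout lung. The highest of the list was Hsd11b1, whose enzyme regenerates active glucocorticoid inside cells, with 155 FPKM in control lung and 199 in knockout lung. Its inactivating counterpart Hsd11b2 was below the floor, at 0.623 and 1.30 FPKM.

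Fkbp5, Tsc22d3 and Zbtb16, all in common use as markers of receptor activity, were lower in the knockout pool. Zbtb16 (chromosome 9, 48462402 to 48644050, mm9) had 29.7 FPKM in control lung and 7.69 in knockout lung. It was 3.86-fold lower (3.50 to 4.25), from about 2504 and 504 reads. Its difference was below that of all but 0.255% of the 12929 genes with a mean FPKM of at least 1, and all of the 500 genes nearest to it in mean FPKM had a higher value. Since Zbtb16 was chosen with its values known, these ranks are a description only. In the control pool Zbtb16 was about as abundant as Nr3c1, at 0.934 times its FPKM, and in the knockout pool it stood at 0.300 times.

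Tsc22d3 (chromosome X, 137074068 to 137135061, mm9) was the most abundant of the 10 genes in the control pool. It had 179.9 FPKM there and 89.5 in knockout lung, 2.01-fold lower (1.91 to 2.11). It has 2 deposited records, which differ in their start. The shorter, of 1971 bases, took 95.6% of the gene's FPKM in control lung and 94.1% in knockout lung, with 172 and 84.2 FPKM. The longer, of 2148 bases, had 7.97 and 5.32 FPKM, so both records were lower in the knockout pool.

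Fkbp5 (chromosome 17, 28536040 to 28623057, mm9) had 21.8 FPKM in control lung and 14.3 in knockout lung. Its plain ratio was 1.53-fold lower (1.39 to 1.68), but on the log2(FPKM + 1) scale its difference of -0.58 was just short of the 1.5-fold threshold. It crossed the threshold under all 4 other scalings of the libraries and with a pseudocount of 0.1. Fkbp4, whose co-chaperone favours receptor transport to the nucleus, was also lower, at 78.8 FPKM in control lung and 55.3 in knockout lung. The ratio of the pair was therefore nearly level. Fkbp5 stood at 0.277 times the FPKM of Fkbp4 in control lung and 0.258 times in knockout lung.

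Of 13 other listed genes of the TSC22 and FKBP families, 12 lay above equality in the knockout pool, against 56.8% of all genes. Fkbp4, which was lower, was counted with the receptor machinery and is not among the 13. Of the 13 genes, 2 were at least 1.5-fold higher, near the background of 9.41%, and 0 lower, with a median of 0.24. The most abundant were Fkbp1a, at 218 FPKM in control lung and 240.2 in knockout lung, and Tsc22d1, at 157 and 173 FPKM. Fkbp10, which encodes a collagen chaperone of the endoplasmic reticulum, was the highest, at 9.72 FPKM in control lung and 21.5 in knockout lung. Fkbp14, another gene of that compartment, was the lowest, at 17.3 and 12.7 FPKM.

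**Figure D2:**
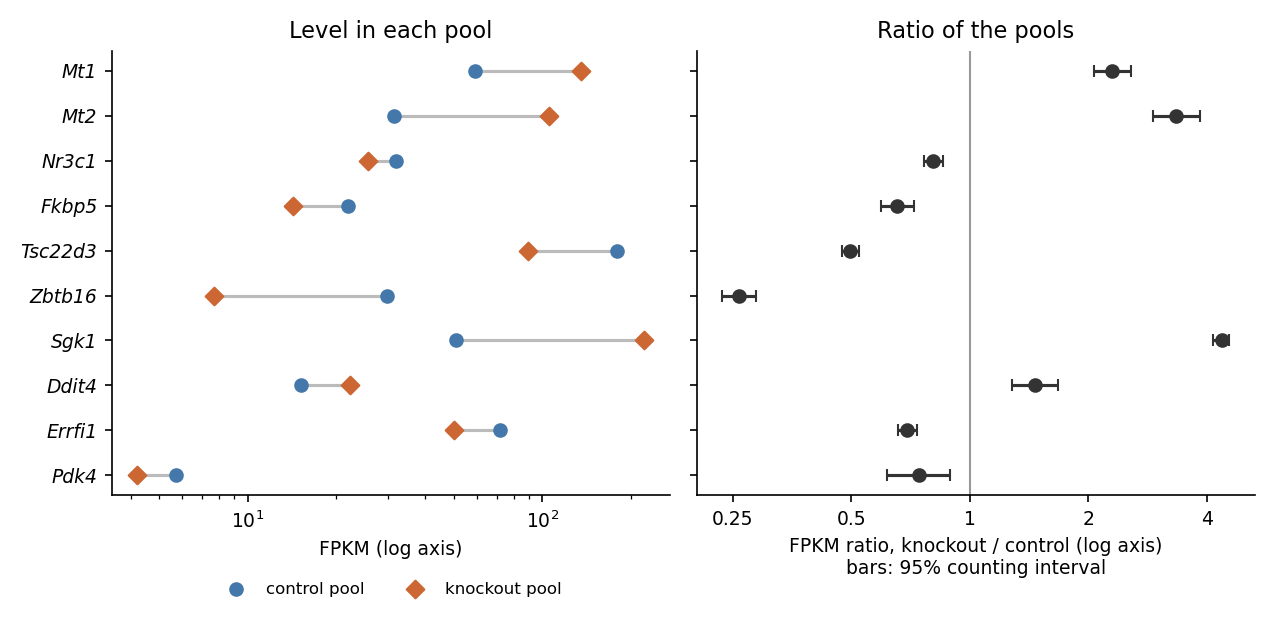
Left, FPKM of each of the 10 genes in the control pool (blue circles) and the knockout pool (orange diamonds), on a log axis. Right, the ratio of knockout to control FPKM with its 95% counting interval, also on a log axis, where Sgk1 (4.37), Mt2 (3.35), Mt1 (2.30) and Ddit4 (1.47) lie above 1 and the remaining 6 genes below it.

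Sgk1, which encodes a kinase induced by serum, glucocorticoids and osmotic stress, went the opposite way. It lies on chromosome 10 from 21601990 to 21719708 (mm9) and had 50.8 FPKM in control lung and 222 in knockout lung. It was 4.37-fold higher (4.14 to 4.57) and passed from rank 1117 to rank 216 of all genes. In the control pool Tsc22d3 had 3.54 times the FPKM of Sgk1, and in the knockout pool 0.403 times, so the order of these receptor targets was inverted.

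The difference lay mainly in 1 of its 6 deposited records, all of which share their end. The record of 2455 bases, which starts nearest to that end, had 40.5 FPKM in control lung and 199.9 in knockout lung, 4.93 times the control level (4.67 to 5.21). Its share of the gene's FPKM was 79.8% and 89.99%. The record of 2587 bases starts 776 bases further upstream, and its window is the one with the receptor palindrome shown above. It had 9.71 FPKM in control lung and 19.4 in knockout lung, 2.0 times the control level (1.76 to 2.26), and its share was 19.1% and 8.72%. The remaining 4 records took little: the record of 2480 bases had 0.575 and 2.35 FPKM, and the other 3 had at most 0.384 FPKM in either pool. The labels do not state how reads common to several records were divided between them. The intervals of single records leave out error from that division.

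**Figure D3:**
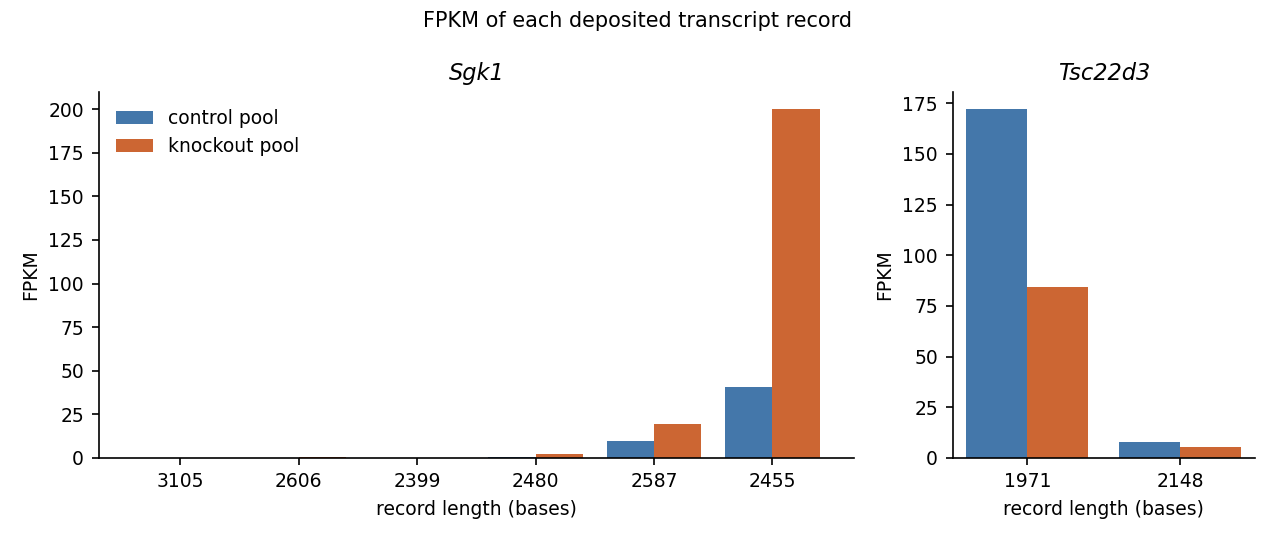
FPKM of each deposited record of Sgk1 (left) and Tsc22d3 (right) in the control pool (blue bars) and the knockout pool (orange bars), with records named by length in bases. The Sgk1 record of 2455 bases stands at 40.5 and 199.9 FPKM and the Tsc22d3 record of 1971 bases at 172 and 84.2 FPKM, in opposite directions.

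Genes of SGK1 signalling and sodium transport, among them paralogues of Sgk1 and its activating kinase gene Pdpk1, were near level. Of 8 such genes over the floor, 0 were at least 1.5-fold higher and 0 lower, with a median of -0.12. With 9.41% of all genes higher and 4.63% lower, these counts are near the background. Atp1b1, which encodes a sodium pump subunit, was the lowest of the list, at 174 FPKM in control lung and 136 in knockout lung, and the paralogue Sgk3 was the highest, at 4.56 FPKM in control lung and 5.76 in knockout lung. Sgk2 was under the floor, at 0.0917 and 0.0293 FPKM.

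The 3 remaining genes differed by less than 1.5-fold. Ddit4 encodes REDD1, an inhibitor of the growth regulator mTORC1, and lies on chromosome 10 from 59412423 to 59414518 (mm9). It had 15.2 FPKM in control lung and 22.3 in knockout lung, 1.47-fold higher (1.28 to 1.67). Of 11 neighbours in mTOR control, 0 were at least 1.5-fold higher and 1 lower, near the 9.41% and 4.63% of all genes. Their median was -0.08, which turned to 0.03 with the most abundant record of each gene alone. The lower gene was Deptor, which encodes another mTOR inhibitor, at 4.64 FPKM in control lung and 2.49 in knockout lung. Ddit4l, the paralogue of Ddit4, was the highest of that list at 1.04 and 1.44 FPKM. The most abundant were the mTORC1 activator gene Rheb, at 47.8 FPKM in control lung and 52.3 in knockout lung, and Tsc2, an upstream brake, at 22.6 and 19.4 FPKM.

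Errfi1, on chromosome 4 from 150229200 to 150242989 (mm9), encodes a feedback inhibitor of the EGF receptor. It had 72.1 FPKM in control lung and 50.02 in knockout lung, 1.44-fold lower (1.36 to 1.52). Of the 8 EGF receptor and ligand genes over the floor, 1 was at least 1.5-fold higher and 1 lower. These counts are near the 9.41% and 4.63% of all genes. The median of the list was -0.27 (-0.13 with a floor of 5 and with none). The ligand gene Hbegf was the highest, at 17.9 FPKM in control lung and 43.0 in knockout lung. The receptor gene Erbb3 was the lowest, at 12.4 FPKM in control lung and 6.97 in knockout lung.

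Pdk4, on chromosome 6 from 5433351 to 5446278 (mm9), encodes a kinase that shuts off pyruvate dehydrogenase during fasting. It was the least abundant of the 10 genes in both libraries, with 5.68 FPKM in control lung and 4.21 in knockout lung. It was 1.35-fold lower (1.12 to 1.62), from about 324 and 186 reads. Of 17 genes of pyruvate dehydrogenase control and fatty acid oxidation, 0 were at least 1.5-fold higher and 3 lower. The shares of all genes were 9.41% and 4.63%. The median of the list was -0.03. Plin2, a lipid droplet coat gene, was the highest at 46.9 and 56.9 FPKM, and the mitochondrial carrier gene Ucp2 was the most abundant at 101 and 93.3 FPKM.

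Set against all genes, the 10 were spread to both sides. On the log2(FPKM + 1) scale, 3 of the 10 (Mt1, Mt2 and Sgk1) were higher by 1.5-fold or more in knockout lung, where 9.41% of the 12929 genes over the floor were, and 2 (Tsc22d3 and Zbtb16) at least 1.5-fold lower, where 4.63% were. Since the genes were chosen from these values, nothing is read from those shares. Their median was -0.33, with 4 of 10 above equality. Fkbp5 at -0.58, Ddit4 at 0.52 and Errfi1 at -0.52 lay just inside the threshold of 0.58 in size. The count of lower genes was 3 under TPM, upper quartile and trimmed mean scaling (with Fkbp5) and 4 under median ratio scaling (with Fkbp5 and Errfi1).

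**Figure D4:**
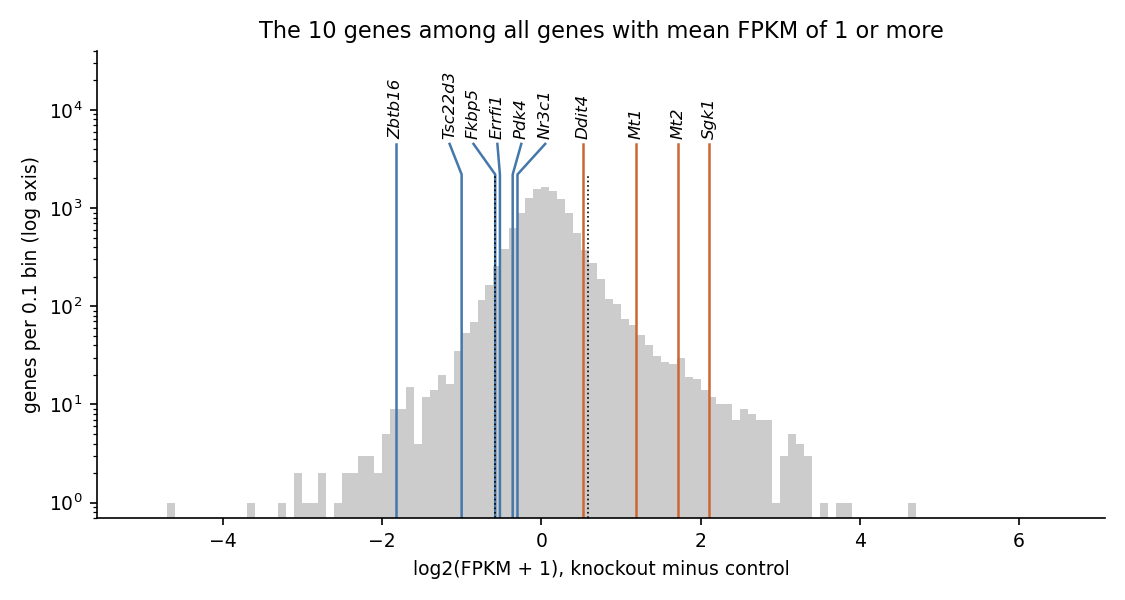
Histogram of the difference in log2(FPKM + 1), knockout minus control, over the 12929 genes with a mean FPKM of at least 1, with the number of genes per bin on a log axis. Coloured lines mark the 10 genes (blue below 0, orange above), dotted lines the 1.5-fold threshold. Zbtb16 at -1.82 and Sgk1 at 2.11 are the outermost of the 10.

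Other genes that glucocorticoids induce in many tissues were mixed, with more of them lower than higher. Of 25 such genes over the floor, 8 were at least 1.5-fold lower in the knockout pool, against 4.63% of all genes, with a median of -0.15. The list was chosen with earlier results of these data known, so nothing is read from that share. The 2 that were higher are near the 9.41% of all genes. The lower genes were Klf15 and Glul and, named after their values were seen, Klf9, Lpin1, Ndrg2, Arrdc2, Arrdc3 and Fam107a. Klf15, a transcription factor gene of fasting metabolism, was the lowest, at 30.4 FPKM in control lung and 10.9 in knockout lung, 2.79-fold lower (2.47 to 3.17). Glul, which encodes glutamine synthetase, had 225 FPKM in control lung and 114 in knockout lung. Its difference was 1.97-fold (1.90 to 2.04).

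The higher pair was Lcn2 and Rasd1, the latter also named after its values were seen. Lcn2, which encodes an iron-scavenging protein of the acute-phase response, had 74.6 FPKM in control lung and 248 in knockout lung, 3.33-fold higher (3.10 to 3.58). Rasd1 was near the floor at 0.540 and 1.49 FPKM. Well known early targets were also mixed. Dusp1, a phosphatase gene, differed little, with 69.8 FPKM in control lung and 77.6 in knockout lung. So did Nfkbia, an inhibitor gene of NF-kB, with 62.9 and 56.5 FPKM. Klf9 was lower, with 57.2 and 30.2 FPKM, as was Per1, with 26.9 and 18.4 FPKM. These genes were chosen after their values were seen. Of the 23 genes that stand on no other list, 8 were lower and 1 higher, with the same median of -0.15.

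Genes of the circadian clock, which shares targets with the receptor and paces the daily rhythm of glucocorticoid release, differed in the same libraries. Of 16 clock genes over the floor, 9 were at least 1.5-fold lower and 2 higher, against 4.63% and 9.41% of all genes, with a median of -0.83. The higher count is near that background. This list too was chosen with earlier results of these data known, so nothing is read from its shares. Dbp, a clock output factor gene, was the lowest at 50.3 FPKM in control lung and 15.3 in knockout lung. Arntl, which encodes the clock activator BMAL1, was the highest at 3.10 FPKM in control lung and 7.34 in knockout lung. Nr1d1 and Tef were the most abundant, at 110.0 and 85.9 FPKM in control lung and 61.2 and 31.9 in knockout lung. Per1, which is on both lists, had 26.9 FPKM in control lung and 18.4 in knockout lung. The part of the clock in the differences of the 10 genes was not tested.

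**Figure D5:**
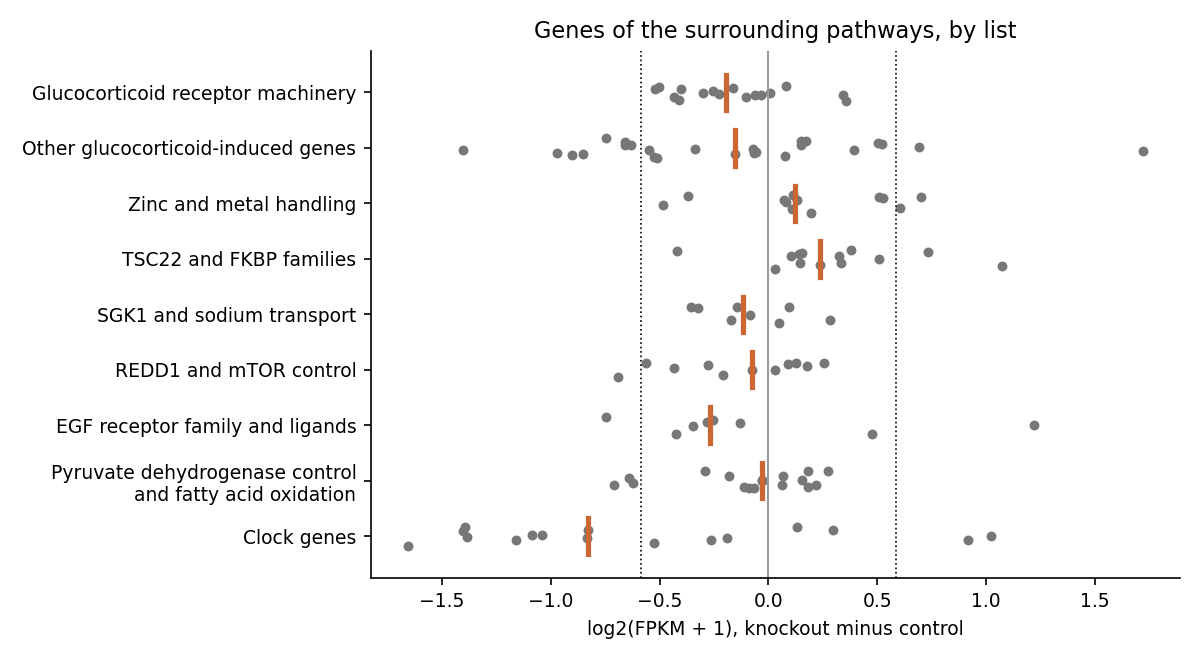
Difference in log2(FPKM + 1), knockout minus control, of each gene over the floor (grey points) in 9 lists around the 10 genes, with the list median as an orange bar and the 1.5-fold threshold as dotted lines. Clock genes have the lowest median at -0.83, the other glucocorticoid-induced genes spread from -1.40 to 1.72, and the receptor machinery stays inside the threshold.

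Markers of cell types that can hold these transcripts also differed between the libraries, against a background of 9.41% of genes higher and 4.63% lower. These lists were chosen with earlier results of these data known, so nothing is read from those shares. Of 6 club cell markers, 4 were at least 1.5-fold lower in the knockout pool, with sums of 40608 and 25476 FPKM. Of 8 general capillary markers, 5 were lower and 2 higher, with sums of 1602 and 710.4 FPKM. Of 7 aerocyte (gas-exchange capillary) markers, 3 were lower and 2 higher, with a median of -0.55. Their sums were nearly equal at 376.2 and 375.6 FPKM, but differences in opposite directions offset each other in them. Of those sums, 29.99 and 153 FPKM came from Emcn, the highest of the list. Fibin, the lowest, had 43.99 FPKM in control lung and 8.33 in knockout lung. Of 5 ciliated cell markers, 3 were lower, with sums of 670 and 396 FPKM. Of 5 heart muscle genes, 3 were over the floor and higher, and the list summed to 18.6 and 33.4 FPKM, with Myh6 at 0 in control lung. Of 8 fibroblast and smooth muscle markers, 5 were higher and 1 lower, with a median of 1.15 and sums of 1935 and 2292 FPKM. Of those sums, 1189 and 626 FPKM came from Inmt, the lower gene. The 7 alveolar type 2 markers were all within 1.5-fold, with sums of 19803 and 17098 FPKM. The 6 proliferation genes were all higher, with sums of 10.7 and 132 FPKM. No other gene of these lists was at 0 in either pool, and the part of cell composition in the differences of the 10 genes was not tested.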

How the data were processed

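The authors deposited FPKM values and a coverage (aligned bases per transcript base) for 28107 RefSeq transcript records per library, per the file headers. Per the submitters' processing notes, coordinates are on mm9, and DESeq was among the tools. Not given in the sources used here were the aligner, the quantification tool and the role of DESeq. FPKM divides by a library's total, so abundant transcripts can shift all other values. Starts are printed counted from 1.

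FPKM was summed over the records of a symbol. Differences are log2(FPKM + 1), knockout minus control, over the 12929 genes with a mean FPKM of at least 1. This scale understates differences of low genes. Members and lists past 1.5-fold on it were counted. Folds of single genes are plain FPKM ratios. Reads were approximated as coverage times length over the bases that 1 read adds (47.4 in both libraries, the median of single-record genes between 36 and 60 bases), and gave exact Clopper-Pearson conditional intervals at 95%, for counting error only. The interval script was tested on simulated data. The 10 genes and the 32 lists were chosen with earlier results of these data known. Named genes are the 10, and of each pathway list over the floor, those with the highest and lowest difference and the 2 with the largest mean FPKM; others, among them Alb, Fkbp4, Hsd11b2, Mt3, Mt4, Myh6, Pdpk1, Per1 and Sgk2, were chosen after their values were seen. Some genes that the rule names are not reported here. With 2 libraries, no likeness of pattern can be measured. Alternatives were 4 scalings, 2 ways to sum records, 2 pseudocounts, 2 floors, 2 folds and leaving out shared genes. Python 3.11.15, pandas 2.3.3 and scipy 1.17.1 were used.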

Additional observations from a re-analysis of the deposited data

How the results depend on the processing

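No paired analysis was possible because each genotype has 1 library, and for the same reason no replicate could be left out. All 10 genes kept their direction under the 4 scalings and both ways of summing records, and Mt1, Mt2 and Sgk1 stayed at least 1.5-fold higher wherever that fold was used. The kept direction was bound to hold under the scalings, which apply 1 factor to all genes. That factor was at most 0.0682 in log2, against -0.309 for Nr3c1, the nearest of the 10 to equality. Of the 10 genes, 8 have 1 deposited record, so the ways of summing could not change those. The log2 ratio of Sgk1 was 2.30 from its most abundant record alone, against a range of 2.06 to 2.13 under the other settings. The number of genes that were lower was 2 as reported, 4 under median ratio scaling, 1 at a threshold of 2-fold and 5 at the laxest threshold tried, the last 2 by construction. Scalings shifted the median of all genes by at most 0.07. The median of the zinc and metal handling list was 0.12 as reported, 0.0603 under median ratio scaling, 0.0660 under upper quartile scaling and 0.0654 under trimmed mean scaling. The median of the other glucocorticoid-induced genes was -0.15 as reported, -0.27 under TPM and -0.34 with a floor of 5. The median of REDD1 and mTOR control was -0.08 as reported and 0.03 with the most abundant record alone, and that of the EGF list was -0.27 as reported and -0.13 with a floor of 5 or none.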

Other observations

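Immediate early genes, which respond to growth factors and handling within minutes, were mostly higher in the knockout pool. Of 11 over the floor, 6 were at least 1.5-fold higher and 1 lower, against 9.41% and 4.63% of all genes. The lower count is near that background. Their median was 0.60, against 0.05 for all genes. As this list was chosen with earlier results of these data known, nothing is read from its shares. Nr4a1, an orphan nuclear receptor gene, was the highest at 8.67 FPKM in control lung and 27.4 in knockout lung, 3.16-fold higher (2.79 to 3.59). Jun, which encodes a subunit of AP-1, was the lowest at 86.0 FPKM in control lung and 55.8 in knockout lung, and with Ier3 (85.4 and 83.0 FPKM) the most abundant.

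Acute-phase genes were mostly higher in knockout lung, 6 of the 7 over the floor lying above equality, with a median of 0.45. By the 1.5-fold threshold, 3 were higher and 1 lower, against 9.41% and 4.63% of all genes. Nothing is read from these shares, since this list was also chosen with earlier results known. Saa3 was the highest, at 1.43 FPKM in control lung and 21.2 in knockout lung, while Hp, the haptoglobin gene, was the most abundant at 402 and 455 FPKM. The interleukin-6 receptor gene Il6ra was the lowest, at 16.5 FPKM in control lung and 8.42 in knockout lung.

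Targets of hypoxia and of the stress factor ATF4, to which Ddit4 also belongs, had a median of 0.02. Of 12 over the floor, 1 was at least 1.5-fold higher and 1 lower, near the 9.41% and 4.63% of all genes. Adm, the adrenomedullin gene, had 3.27 FPKM in control lung and 14.4 in knockout lung, and Bnip3, a mitophagy gene, had 44.2 and 24.2 FPKM. Vegfa was the most abundant at 305 and 256 FPKM, followed by Atf4 at 83.7 and 95.5 FPKM.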
